A study of Homo sapiens with 2 samples.

Results

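The 35 genes described here encode enzymes and regulators of cholesterol and fatty acid synthesis. They were chosen by name, and each matched exactly 1 of the 13075 rows of the deposited gene table. RNA had been measured in HEK293 cells, which derive from human embryonic kidney, at passage 15. Both libraries came from cells transfected with the R338W form of TOP3B bearing a FLAG tag. TOP3B is a topoisomerase with activity on both DNA and RNA. The RIP (RNA immunoprecipitation) library held the RNA that a monoclonal antibody to FLAG pulled down, and the input library was made with no antibody. There was 1 library per group, so no difference below has a replicate check, and no p-value or SD over replicates could be given. No control RIP lacking the tag was analysed here, so RNA bound through TOP3B and RNA carried along in the procedure cannot be told apart.

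Cholesterol is built from acetyl-CoA through mevalonate, farnesyl diphosphate, squalene and lanosterol. The late steps and most of the regulation take place in the membrane of the endoplasmic reticulum (ER). The SREBP transcription factors are made as ER membrane precursors. When sterols are low, SCAP escorts them to the Golgi, where the site-1 and site-2 proteases release their active part, and INSIG proteins hold SCAP back when sterols are high. Released SREBPs bind sterol regulatory elements near many genes of both pathways, together with the CCAAT-binding factor NF-Y.

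Values were taken as FPKM, in which a gene's fragments are divided by its transcript length and by the library's total. The ratio of a gene was log2((RIP + 1)/(input + 1)), so a positive ratio means more in the RIP. Genes that reached 5 FPKM in either library were compared, which kept 11990 genes, 10513 of them protein-coding. All 35 lipid synthesis genes passed, 34 of them in both libraries. PMVK passed through the input alone, a filter that only a gene lower in the RIP can pass in this way. The depth was estimated from the steps of low values as 24300000 fragments for the RIP and 15200000 for the input. The bait transcript, TOP3B, stood at 30666 FPKM in the RIP against 15062 FPKM in the input. Of 10 genes listed as HEK293-associated 8 were in the table, led by VIM at 679 FPKM in the RIP against 544 FPKM in the input, whereas no hepatocyte, adipocyte or blood cell marker of 5 listed for each was.

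On the deposited scale no lipid synthesis gene was 2-fold apart between the libraries, but the family was spread widely within that limit. The deposited values total 1090000 FPKM for the RIP and 1512000 FPKM for the input. Scaling both to a common total would raise every ratio and was not run, so counts past a fold limit depend on the scale. Of the 35 genes 0 were higher in the RIP by 2-fold or more, against 4.90% of all genes and 3.65% of coding genes, and 0 were lower by as much, against 2.50% of all genes and 0.533% of coding genes. Their median ratio was -0.16, below the median of 0.13 over all genes, called the median gene here, and of 0.15 over coding genes. Summed over the 35 genes, the level was 1621 FPKM in the RIP against 1628 FPKM in the input. The quartiles of the ratio were -0.52 and 0.28, against -0.20 and 0.49 for coding genes. Ratios ran between -0.85 for SC5D and 0.73 for ACACB. Only 11 of the 35 lay above the median of all genes, against 51.4% of coding genes, and 17 lay above 0, against 60.8% of coding genes.

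**Figure D1:**
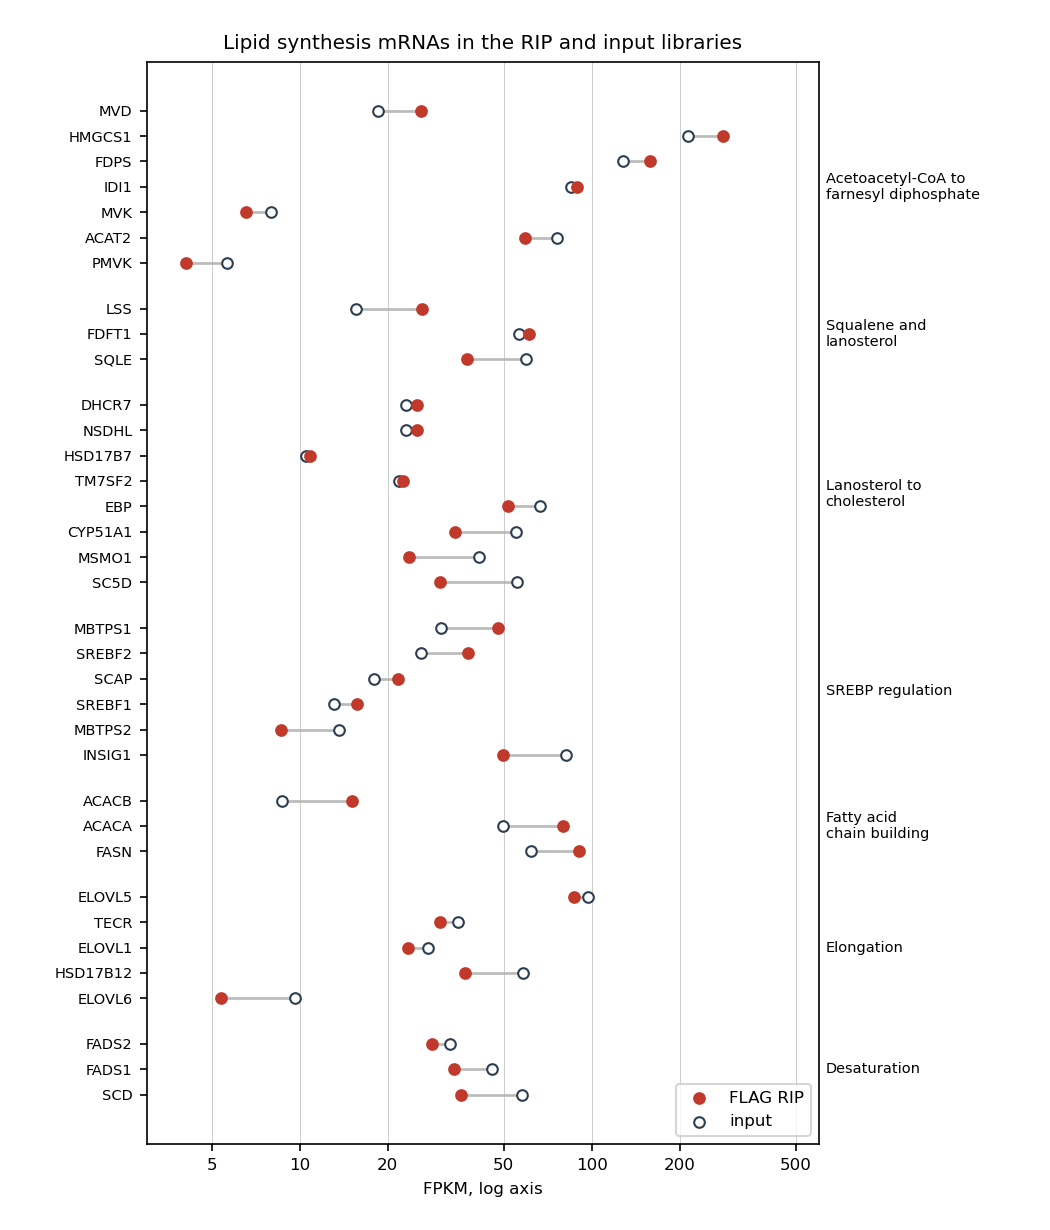
FPKM of each gene in the FLAG RIP (filled red) and the input (open), on a log axis, grouped by role and ordered within each group by the ratio. HMGCS1 is the highest in both libraries, at 282 FPKM in the RIP against 213 FPKM in the input, and PMVK the lowest at 4.07 FPKM in the RIP against 5.64 FPKM in the input.

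The genes at the low end formed a longer tail than those at the high end. At a limit of 1.5-fold, 9 genes were lower in the RIP, against 7.01% of coding genes, and 4 were higher, against 19.2% of coding genes. The same 9 genes, 25.7% of the family, lay in the lowest 10.0% of coding genes, and 0 lay in the highest 10.0%. These tails were chosen for this description after the values had been seen. The 9 were SC5D, MSMO1, ELOVL6, INSIG1, SCD, CYP51A1, SQLE, HSD17B12 and MBTPS2. All of these encode proteins that sit in membranes of the ER or Golgi, as do 25 of the 35 genes, a grouping made after the values had been seen.

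**Figure D2:**
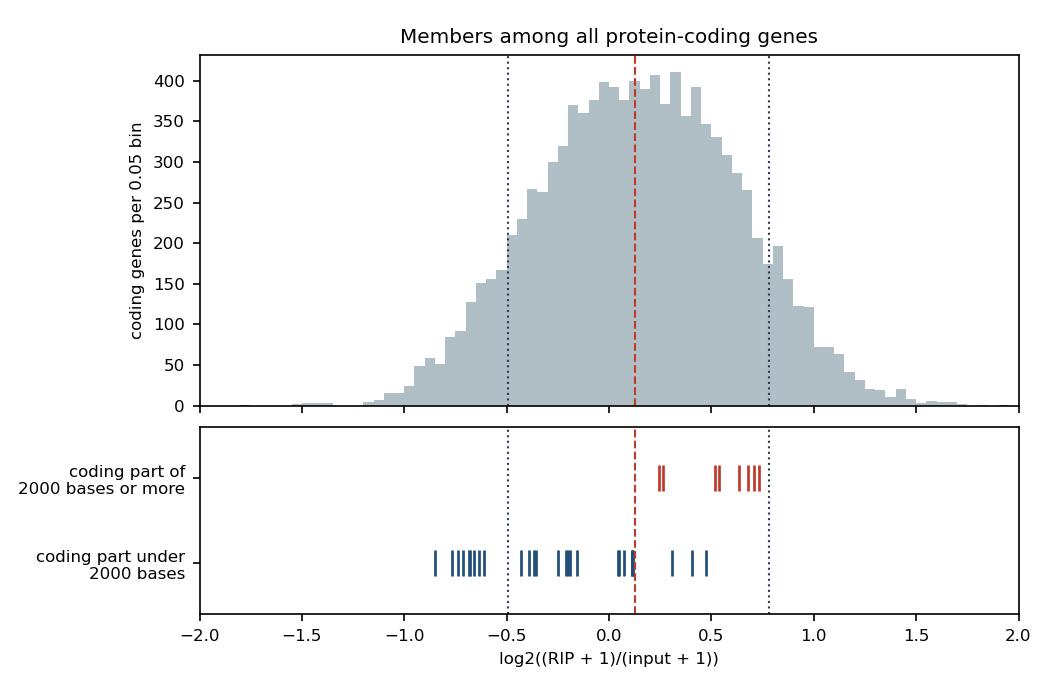
Histogram of log2((RIP + 1)/(input + 1)) over protein-coding genes (top) and the position of each lipid synthesis gene as a tick (bottom), split at a coding length of 2000 bases. The dashed line is the median of all genes at 0.13 and the dotted lines bound the lowest and highest 10.0% of coding genes at -0.49 and 0.78. The axis leaves out 4 coding genes beyond 2 on either side.

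The sequences that follow are stretches of 120 bases from the middle of the longest coding exon of the genes with the lowest ratios, SC5D and MSMO1, and of those with the highest, LSS and ACACB. They are shown because coding length and base composition went with the ratio across the family, as described further on. The 2 ends overlapped in base composition, however. Coding GC content was 47.6% in ACACA, with a ratio of 0.68, and 57.9% in INSIG1, with a ratio of -0.71. They are in frame, read from the GENCODE release 29 transcripts on GRCh38, and capitals mark codons that end in G or C.
SC5D, chr11:121307225-121307344, plus strand: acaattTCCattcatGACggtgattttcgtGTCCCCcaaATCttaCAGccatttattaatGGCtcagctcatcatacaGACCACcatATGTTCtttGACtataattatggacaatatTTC
MSMO1, chr4:165333440-165333559, plus strand: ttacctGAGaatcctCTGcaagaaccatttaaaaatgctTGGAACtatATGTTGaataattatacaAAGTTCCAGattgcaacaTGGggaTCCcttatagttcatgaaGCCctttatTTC
LSS, chr21:46194517-46194636, minus strand: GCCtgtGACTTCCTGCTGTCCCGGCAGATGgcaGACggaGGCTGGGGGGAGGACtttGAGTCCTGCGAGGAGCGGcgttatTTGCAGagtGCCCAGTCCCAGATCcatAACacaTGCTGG
ACACB, chr12:109139673-109139792, plus strand: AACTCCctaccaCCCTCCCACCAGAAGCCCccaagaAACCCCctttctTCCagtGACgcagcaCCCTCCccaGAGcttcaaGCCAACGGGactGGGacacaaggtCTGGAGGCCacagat
Of the 40 codons in each stretch, 13 ended in G or C in SC5D, 13 in MSMO1, 31 in LSS and 22 in ACACB. Over the whole coding part the share of such codons was 37.0% in SC5D, 31.6% in MSMO1, 77.6% in LSS and 71.6% in ACACB. The stretches of SC5D, MSMO1, LSS and ACACB lie in exons 5, 2, 20 and 2 of their principal transcripts, the main coding transcript by the annotation.

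The enzymes that lead to farnesyl diphosphate went both ways around the median gene. HMGCS1, the cytosolic HMG-CoA synthase, stood at 282 FPKM in the RIP against 213 FPKM in the input, a ratio of 0.40. MVD, which decarboxylates mevalonate diphosphate, had the highest ratio of the group at 0.47, with 26.1 FPKM in the RIP against 18.5 FPKM in the input. FDPS, which makes farnesyl diphosphate, stood at 158 FPKM in the RIP against 128 FPKM in the input. These 3 were the genes of the group above the median gene.

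IDI1, the isopentenyl diphosphate isomerase, was nearly level, at 89.3 FPKM in the RIP against 84.7 FPKM in the input. ACAT2, the cytosolic acetoacetyl-CoA thiolase, had 59.1 FPKM in the RIP against 76.0 FPKM in the input, a ratio below 0. On the opposite strand, SOD2-OT1 overlaps 33.9% of its exon bases, SOD2 26.5% and TCP1 9.2%. Opposite-strand gene models also overlap exon bases of FDPS (18.6%), HMGCS1 (14.95%) and IDI1 (14.8%). Whether counting used strand is not known, so these values may include fragments of the other genes. The 2 mevalonate pathway kinases were scarce and lower in the RIP. MVK stood at 6.54 FPKM in the RIP against 7.97 FPKM in the input, and PMVK at 4.07 FPKM in the RIP against 5.64 FPKM in the input. PMVK rested on an estimated 110 fragments for the RIP and 96 for the input, the fewest of the family, and its counting interval reached 0.40 on either side of its ratio. The median of the 7 genes was 0.08, below the median gene, but a floor of 20 FPKM left out MVK and PMVK and gave 0.31, above the median gene of 0.21 at that floor.

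The next steps held a gene from each end of the family. LSS, the cyclase that folds oxidosqualene into lanosterol (ENSG00000160285.14, GRCh38 chromosome 21, 46188141 to 46228824, minus strand), had 26.2 FPKM in the RIP against 15.6 FPKM in the input, a ratio of 0.71. SQLE, the squalene epoxidase that makes the substrate of LSS, stood at 37.4 FPKM in the RIP against 59.7 FPKM in the input, a ratio of -0.66. FDFT1, the squalene synthase just before it, lay at the median gene, with 61.1 FPKM in the RIP against 56.4 FPKM in the input. Neighbouring steps of the pathway thus had ratios on opposite sides of the median gene.

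All 8 enzymes between lanosterol and cholesterol lay below the median gene, and they fell apart into level and low transcripts. SC5D, the lathosterol desaturase (ENSG00000109929.9, GRCh38 chromosome 11, 121292453 to 121308694, plus strand), had the lowest ratio of the family, at 30.2 FPKM in the RIP against 55.3 FPKM in the input. This was 1.80-fold more in the input on the pseudocount scale, and 1.78% of coding genes had a lower ratio. MSMO1, the C4-methylsterol oxidase, stood at 23.7 FPKM in the RIP against 41.1 FPKM in the input, a ratio of -0.77. CYP51A1, the lanosterol demethylase, stood at 34.1 FPKM in the RIP against 55.1 FPKM in the input, a ratio of -0.68. Another gene model on the same strand, AC000120.2, covers 79.4% of the exon bases of CYP51A1, so its value depends on how shared fragments were assigned.

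EBP, the sterol isomerase, was lower by less, at 51.5 FPKM in the RIP against 66.7 FPKM in the input. The remaining 4 enzymes were close to level. NSDHL, a sterol dehydrogenase, stood at 25.1 FPKM in the RIP against 23.1 FPKM in the input. DHCR7, which makes cholesterol from its direct precursor, stood at 25.1 FPKM in the RIP against 23.1 FPKM in the input. TM7SF2, a sterol reductase, stood at 22.5 FPKM in the RIP against 21.9 FPKM in the input. HSD17B7, a ketosteroid reductase, stood at 10.9 FPKM in the RIP against 10.5 FPKM in the input. HSD17B7 shares sequence with the pseudogene HSD17B7P2, listed at 6.10 FPKM in the RIP against 4.46 FPKM in the input, so fragments of the 2 may have been divided between them. The median of the 8 genes was -0.16, or -0.37 at a floor of 20 FPKM, which left out HSD17B7.

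**Figure D3:**
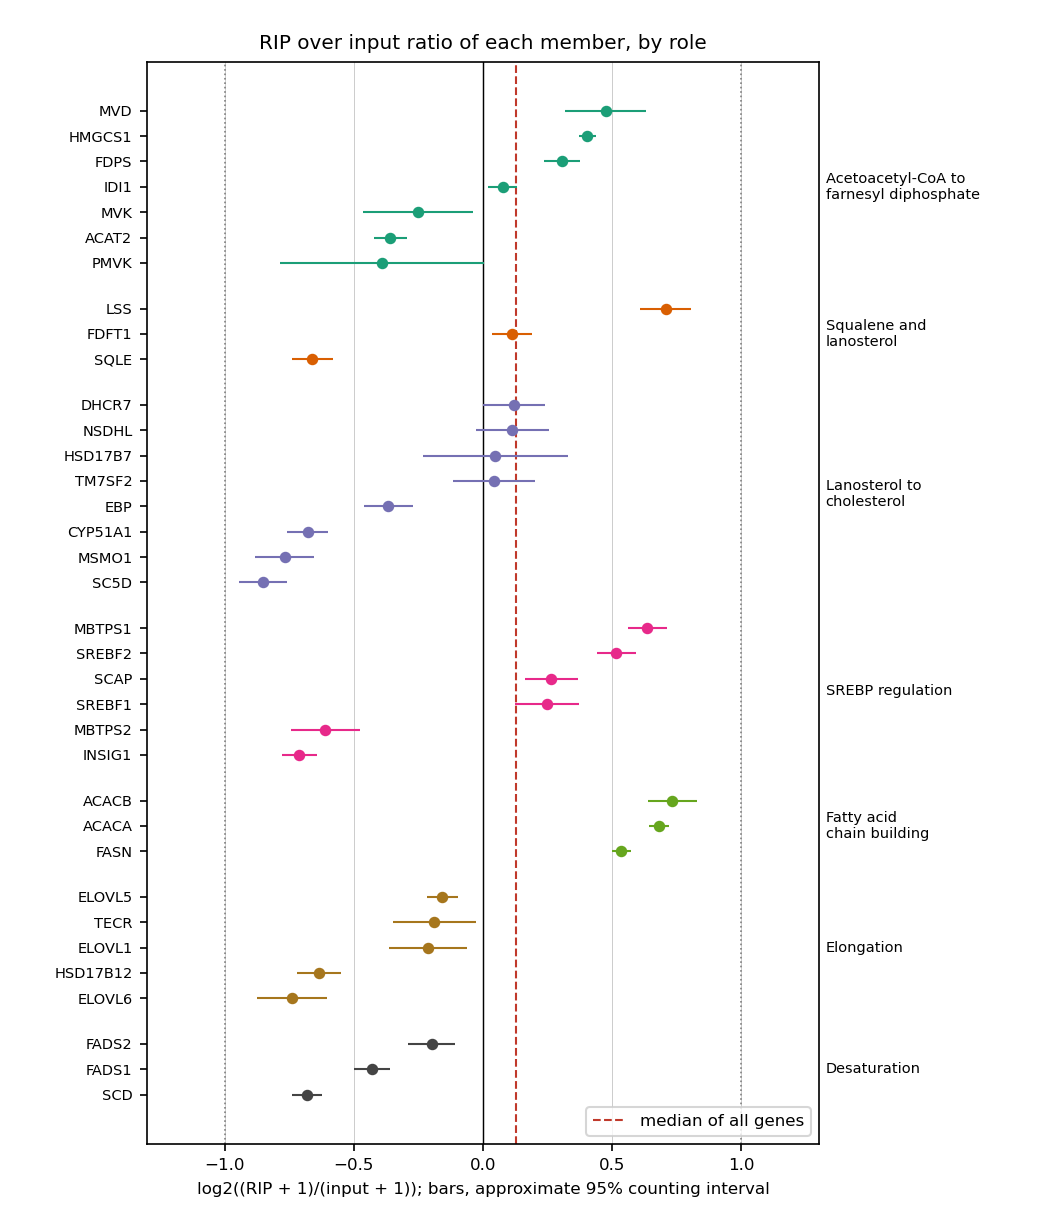
Ratio of each gene, log2((RIP + 1)/(input + 1)), by role, with bars for the approximate 95% counting interval, the dashed line at the median of all genes (0.13) and dotted lines at 2-fold. Fatty acid chain building lies wholly to the right of the dashed line, elongation and desaturation wholly to its left, and the SREBP machinery on both sides.

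The SREBP machinery lay on both sides of the median gene, and so did its 2 proteases. MBTPS1, the site-1 protease, had the highest ratio of the 6 genes at 0.64, with 47.7 FPKM in the RIP against 30.4 FPKM in the input. MBTPS2, the site-2 protease that makes the following cut, had -0.61, with 8.62 FPKM in the RIP against 13.7 FPKM in the input. The ratios of the 2 proteases differed by 1.25, whereas counting alone gave an interval of 0.15 on either side of that difference. The single-exon gene YY2, on the same strand, overlaps 12.2% of the exon bases of MBTPS2.

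SREBF2, which encodes the SREBP that mainly drives cholesterol genes, stood at 37.8 FPKM in the RIP against 26.1 FPKM in the input, a ratio of 0.52. SREBF1, which encodes the forms that mainly drive fatty acid genes, stood at 15.7 FPKM in the RIP against 13.1 FPKM in the input, a ratio of 0.25. SCAP stood at 21.8 FPKM in the RIP against 18.0 FPKM in the input, a ratio of 0.26. INSIG1, which retains SCAP in the ER, went the other way, at 49.6 FPKM in the RIP against 81.9 FPKM in the input, a ratio of -0.71. So 4 of the 6 lay above the median gene and 2 below, with a median of 0.26, or 0.39 at a floor of 20 FPKM.

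The 3 genes that build the fatty acid chain were all higher in the RIP, the only role group entirely above the median gene. ACACB, the acetyl-CoA carboxylase at the mitochondrial surface (ENSG00000076555.15, GRCh38 chromosome 12, 109116595 to 109268226, plus strand), had the highest ratio of the family, 0.73, with 15.1 FPKM in the RIP against 8.70 FPKM in the input. ACACA, the cytosolic carboxylase, stood at 80.0 FPKM in the RIP against 49.5 FPKM in the input, a ratio of 0.68. The ratios of ACACA and ACACB differed by -0.05, within the counting interval of 0.10 on either side, although ACACA had the higher FPKM in both libraries. FASN, the multifunctional fatty acid synthase that uses their product, stood at 90.5 FPKM in the RIP against 62.1 FPKM in the input, a ratio of 0.54. These were the 3 longest coding parts of the family.

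All 5 genes of elongation and all 3 of desaturation in the family were lower in the RIP. ELOVL6, which elongates saturated chains made by FASN, had the lowest ratio among them at -0.74, with 5.37 FPKM in the RIP against 9.63 FPKM in the input. ELOVL5, which elongates polyunsaturated chains, had the highest at -0.16, with 86.7 FPKM in the RIP against 96.8 FPKM in the input. ELOVL1, which makes very long saturated chains, stood at 23.5 FPKM in the RIP against 27.4 FPKM in the input. HSD17B12, the ketoacyl reductase that the elongases share, stood at 37.0 FPKM in the RIP against 57.9 FPKM in the input, a ratio of -0.63. TECR, the reductase that closes each elongation cycle, stood at 30.3 FPKM in the RIP against 34.7 FPKM in the input.

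Among the desaturases SCD, which makes oleate and palmitoleate, had the lowest ratio at -0.68, with 35.7 FPKM in the RIP against 57.9 FPKM in the input. FADS1, the delta-5 desaturase, stood at 33.7 FPKM in the RIP against 45.7 FPKM in the input, a ratio of -0.43. FADS2, the delta-6 desaturase, stood at 28.4 FPKM in the RIP against 32.8 FPKM in the input, a ratio of -0.20. The exons of FADS1 and FADS2 overlap on opposite strands over 490 bases, and without knowing whether counting used strand, fragments from that stretch cannot be told apart. The median was -0.21 for elongation and -0.43 for desaturation. Thus the 3 chain-building genes and these 8 genes lay on opposite sides of the median gene. Outside the family, the desaturase SCD5 had a ratio of -0.39, but the desaturase FADS3 had 0.22, above the median gene.

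Counting error was small for most of the family. With the estimated depth, the counting interval lay above the median gene for 10 genes, below it for 18, and held it for 7, which were IDI1, FDFT1, TM7SF2, NSDHL, HSD17B7, DHCR7 and SREBF1. These intervals cover the sampling of fragments only and say nothing of the spread between experiments.

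The ratio followed the length of the coding part. Across the 35 genes the Spearman rho between ratio and coding length was 0.64, and across 10513 coding genes it was 0.51. The genes of 1 library pair share depth and normalization, so these are descriptions and carry no p. Total length of the principal transcript had rho 0.25 for the 35 genes and 0.24 for coding genes, whereas the median length of a gene's annotated transcripts, the measure planned first, had -0.20 and -0.04. Principal length, coding length, UTR share and GC content were added after the values had been seen. The share of the transcript that is 3′ UTR had rho -0.45 for the 35 genes and -0.30 for coding genes. GC content of the transcript had rho 0.53 for the 35 genes, against 0.25 for coding genes, and coding length and coding GC content themselves went together in the family, with rho 0.33, but not over coding genes, with rho -0.09. The level in the input had rho -0.14 in the family.

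**Figure D4:**
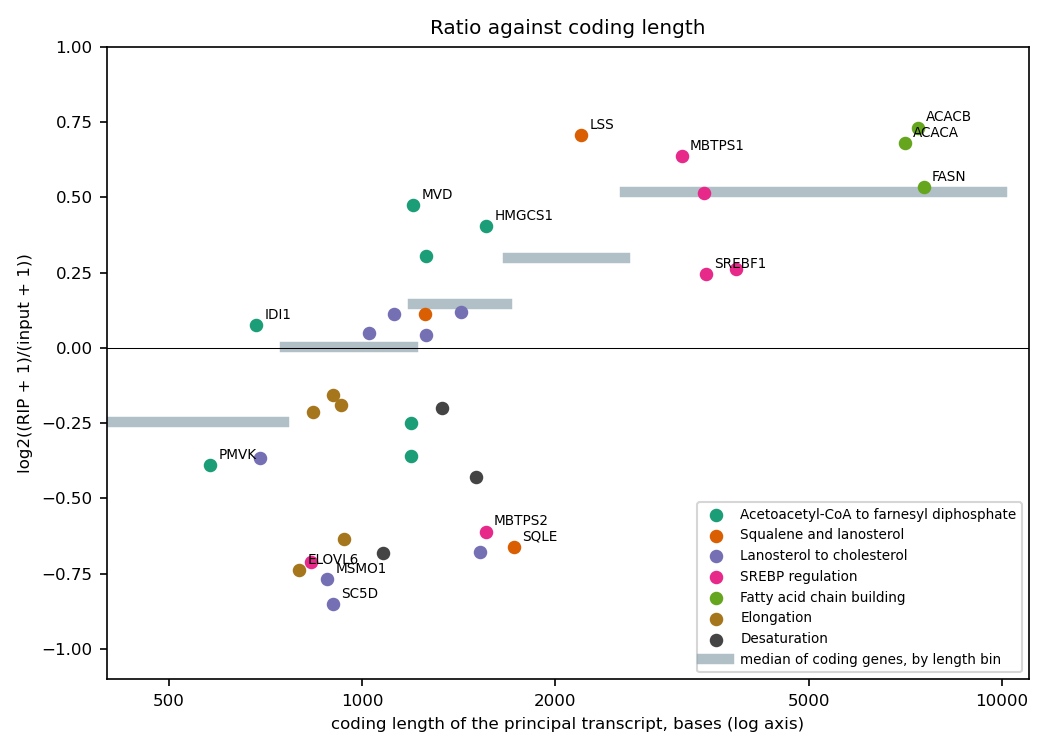
Ratio of each lipid synthesis gene against the coding length of its principal transcript (log axis), coloured by role. Grey bars are the median ratio of all coding genes in 5 equal-sized bins of coding length, which run from -0.25 to 0.52; the outer bars are cut at the axis limits.

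All 8 genes with a coding part of at least 2000 bases lay above the median gene, with a median ratio of 0.59. They were LSS, MBTPS1, SREBF1, SREBF2, SCAP, FASN, ACACA and ACACB. Of the 27 genes with a shorter coding part 3 lay above it, and their median was -0.25. This limit was set after the values had been seen. The genes next to it were LSS, with 2199 coding bases, and SQLE, with 1725. Over all coding genes, 77.2% of those with at least 2000 coding bases and 39.6% of the others lay above the median gene, with medians of 0.45 and 0.00.

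Within bins of coding length most of the family still lay low. Coding genes were divided by coding length into 5 bins of about equal size, and each lipid synthesis gene was set against the median of its bin. Of the 35 genes 24 were lower than that median and 11 were higher, and the median difference was -0.16. In the bin of 759 to 1200 coding bases, the 13 lipid synthesis genes had a median of -0.36, against 0.00 for all 2113 coding genes of the bin, and 2 of the 13 lay above the bin's median. In the bin of 1203 to 1686 bases, the 10 lipid synthesis genes had a median of 0.08, against 0.15 for the bin. In the bin of 2580 bases or more, the 7 lipid synthesis genes had a median of 0.54, against 0.52 for the bin, and 4 of the 7 lay above it. SQLE stood furthest under the median of its own bin, at -0.66 against 0.30.

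The shorter transcripts were also described by the place of the protein, and the groups overlapped. The 20 genes with under 2000 coding bases whose proteins work in ER or Golgi membranes all lay below the median gene, with a median of -0.40 and ratios of -0.85 to 0.12, although the counting intervals of 5 of them (FDFT1, TM7SF2, NSDHL, HSD17B7 and DHCR7) held it. The 7 of that length whose proteins work in the cytosol or peroxisomes had a median of 0.08 and ratios of -0.39 to 0.47, with 3 above the median gene and 4 below. The 5 membrane-associated proteins with a long coding part, SREBF1, SREBF2, SCAP, MBTPS1 and LSS, all lay above the median gene. The counting interval of SREBF1 held it, however. MBTPS1 and LSS lay above the medians of their coding-length bins, SREBF1 and SCAP below, and SREBF2 was level with its bin at 0.52. Whether place, coding length or base composition moved with the ratio independently was not tested.

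Genes from both ends of the family carried the CCAAT box that NF-Y binds. The promoters of SC5D, the gene with the lowest ratio, and LSS, among the highest, are shown to set this shared feature beside their opposite ratios. They come from RefSeq on GRCh38.p14 and run from 250 bases before to 50 after a gene start, and capitals mark the box on either strand.
SC5D, chr11:121292521-121292820, plus strand: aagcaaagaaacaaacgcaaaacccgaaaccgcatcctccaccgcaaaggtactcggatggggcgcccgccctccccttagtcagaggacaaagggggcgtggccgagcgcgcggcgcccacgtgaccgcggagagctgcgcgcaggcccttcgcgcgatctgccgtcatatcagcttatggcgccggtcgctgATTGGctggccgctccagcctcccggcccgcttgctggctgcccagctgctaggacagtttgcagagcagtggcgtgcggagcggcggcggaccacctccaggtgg
LSS, chr21:46228725-46229024, minus strand: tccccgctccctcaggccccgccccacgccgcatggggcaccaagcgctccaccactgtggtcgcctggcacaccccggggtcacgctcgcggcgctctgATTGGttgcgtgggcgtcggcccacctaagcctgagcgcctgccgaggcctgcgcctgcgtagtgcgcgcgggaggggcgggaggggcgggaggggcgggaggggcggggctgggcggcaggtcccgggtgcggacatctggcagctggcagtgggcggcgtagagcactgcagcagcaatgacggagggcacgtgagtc
Promoters were found for 30 of the 35 genes, all but ACAT2, FASN, FDFT1, HSD17B12 and SQLE. The letters CCAAT, searched on both strands, were in at least 1 promoter of 22 of the 30 genes. By promoter, 26 of their 40 held them (65.0%), against 34.6% of all 35116 promoters of the same length. The 22 genes had a median ratio of 0.05 and the other 8 had -0.41. A match describes these letters only, and RNA rather than promoter activity was measured.

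Neighbouring pathways were set beside the family by their medians. Other elongation and dehydration enzymes had the lowest median of the 10 lists, -0.56 over 9 genes, 8 of them below the median gene. This list also held the desaturases FADS3 and SCD5 and the thioesterase ACOT7. In it ELOVL2, an elongase of polyunsaturated chains, stood at 7.73 FPKM in the RIP against 14.9 FPKM in the input, and FADS3 at 10.8 FPKM in the RIP against 9.14 FPKM in the input. The genes that use farnesyl diphosphate for prenylation, dolichol and ubiquinone had a median of -0.12 over 17 genes. At a floor of 20 FPKM these 2 medians were -0.22 and -0.48. The first list then kept only the dehydratase HACD3, at -0.56, and ACOT7, at 0.11. Which of the lists was lowest thus depended on the genes that the floor kept. RABGGTA, a subunit of the Rab prenyltransferase, stood at 19.6 FPKM in the RIP against 8.95 FPKM in the input. It was the 1 gene of the 17 in the prenylation list at least 2-fold higher, against 4.90% of all genes and 3.65% of coding genes. NUS1, of the dolichol-making enzyme, stood at 12.4 FPKM in the RIP against 23.3 FPKM in the input.

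With the floor of 5 FPKM, lists around the pathway lay closer to the median gene than the family did. Genes that supply acetyl-CoA and citrate had a median of 0.25 over 6 genes, between ME1 at -0.23 and ACSS2 at 0.50. Sterol uptake, trafficking and storage had 0.24 over 15 genes, between the lysosomal lipase LIPA at -0.76 and the sterol transporter GRAMD1B at 0.68, which passed the floor through the RIP alone. The list of sterol sensing and turnover factors had 0.07 over 10 genes, between PAQR3 at -0.55 and the segregase VCP at 0.77. Acyl-CoA synthetases and binding proteins had 0.06 over 9 genes, between FABP5 at -0.39 and SLC27A4 at 0.51.

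Glycerolipid and phospholipid synthesis had a median of 0.17 over 19 genes, between AGPAT1 at -0.76 and choline kinase CHKA at 0.97. Fatty acid oxidation, the breakdown counterpart of the family, had 0.04 over 21 genes. ACADVL, which starts the oxidation of very long chains, stood at 386 FPKM in the RIP against 194 FPKM in the input, and ACADM at 22.1 FPKM in the RIP against 27.7 FPKM in the input. Mitochondrial fatty acid synthesis had -0.13 over 7 genes, between CBR4 at -0.72 and ACSF3 at 0.53. Glycolysis, pentose phosphate and TCA cycle genes had 0.22 over 36 genes. LDHA, which makes lactate, had the lowest ratio of them at -0.68, and the aldolase ALDOC the highest, with 6.90 FPKM in the RIP against 2.43 FPKM in the input, having passed the floor through the RIP alone. At a floor of 20 FPKM the median gene was at 0.21 and the family's median at -0.06. The medians were then 0.09 for sterol uptake, 0.18 for sterol sensing and turnover factors, 0.00 for acyl-CoA synthetases and 0.29 for glycerolipid synthesis. Fatty acid oxidation, at -0.08, and mitochondrial fatty acid synthesis, at -0.14, lay below the family at that floor. The differences between these lists and the family could not be tested with 1 library a group.

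**Figure D5:**
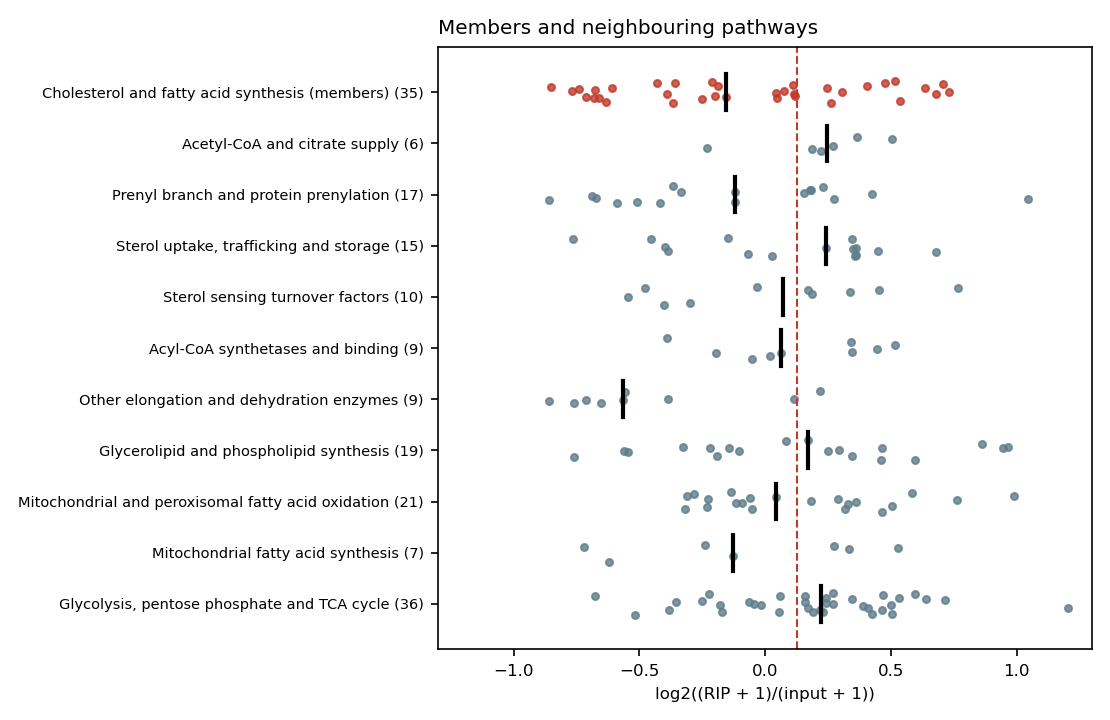
Ratio of each gene, log2((RIP + 1)/(input + 1)), in the lipid synthesis family (red, top) and in 10 neighbouring lists (grey), with the number of genes in brackets, black bars at the medians and the dashed line at the median of all genes. The family's median of -0.16 lies left of the dashed line, and the list of other elongation and dehydration enzymes lies at -0.56. At a floor of 20 FPKM that list keeps only HACD3 and ACOT7, with a median of -0.22. The prenyl branch, at -0.48, is then further left.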

How the data were processed

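Per the labels' protocols, RNA was immunoprecipitated and extracted with a commercial RIP kit and libraries were made with a stranded total RNA kit. Per the submitters' processing notes, the tools were STAR 2.6.1, RSEM 1.2.31, cutadapt 1.18 and Trimmomatic 0.3, with build hg38. How these were set, whether counting used strand and which genes were filtered is not given in the sources used here. For each gene and library, the authors deposited 1 value, with no unit named and no pooling, and these deposited values were taken as FPKM, normalized by the authors to transcript length and library total, because they carry decimals and their totals, 1090000 for the RIP and 1512000 for the input, exceed those of TPM.

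Samples were grouped by their titles. The pseudocount was 1 FPKM and the floor 5 FPKM. Depth was found by searching for the depth and mean fragment length (165 bases in both) that gave whole fragments for genes with 1 transcript; 65.3% of 121 genes (RIP) and 66.2% of 231 genes (input) lay within 0.15 of whole. With lengths shuffled among genes the search reached 47.2% of 108 (RIP) and 43.9% of 107 (input), so the depths are approximate. The search was also run on simulated data with known depths. Those fragments were whole by construction, so that run does not check the depths found here. Counting intervals used the principal transcript's length. They treat fragments as independent. Features came from GENCODE release 29, matched by Ensembl identifier for 99.3% of genes. Python 3.11.15, numpy 2.4.6, pandas 2.3.3, scipy 1.17.1 and matplotlib 3.10.9 were used.

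The genes, lists and tests were chosen with earlier results of these data known. The rule named all 35 genes and the highest and lowest gene of each neighbouring list. Alternatives were other pseudocounts, floors, fold limits and scalings.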

Additional observations from a re-analysis of the deposited data

How the results depend on the processing

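No paired analysis was possible because a single library stood for each kind of sample. The median ratio of the 35 genes lay between -0.33 and -0.06 over the alternatives run. In each it was below 0 and below the median gene of the same setting. A floor of 20 FPKM, which kept 28 of the genes, gave -0.06 against 0.21. No scaling to a common total was among the alternatives. The deposited totals were 1090000 for the RIP and 1512000 for the input, so such a scaling would raise every ratio. The sign of the family's median against 0 is therefore given only for the settings run. Centring moved all ratios by -0.13 and scaling to protein-coding genes moved the median gene by -0.17, or by -0.16 without TOP3B and mitochondrially encoded genes, a setting added after seeing the data. Either coding scaling made 1 gene (SC5D) at least 2-fold lower and lowered the median of fatty acid chain building, 0.50 and 0.51 with the addition. The split of all genes past 2-fold was 66.2% higher as deposited, 44.8% when centred, 38.2% with coding scaling and 39.6% with the addition. The 1.5-fold limit gave 4 higher and 9 lower genes, and the 4-fold limit 0 of each. Against rho -0.20 for median annotated transcript length, the longest transcript gave 0.28, and, added after seeing the data, principal transcript length 0.25, coding length 0.64 and GC content 0.53. The length definition thus decided the sign. Of 238 single-gene values 94 moved beyond the counting interval and 18 changed sign, all under a scaling or centring. Depth limits PMVK, HSD17B7 and MVK most.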
